A study of Mus musculus with 16 samples.

Results

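The genes described here are Trp53, which encodes the transcription factor p53, and 9 genes known as its targets: Mdm2, Ccng1, Trp53inp1, Cdkn1a, Plk2, Sesn1, Bax, Bbc3 and Perp. They were chosen by name, and all 10 were found by symbol among the 24320 gene names that the 3 expression tables of the study share. All 10 also passed the filter on low values in every table, which asked for 1 or more in at least 2 libraries. RNA-seq libraries had been made from total RNA of E14Tg2a.IV, a line of mouse embryonic stem (ES) cells that the labels place in strain C57BL/6. The cells grew free of feeders with LIF and serum. Another line, CCE, also appears in the growth protocol, with no sample tied to it.

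There were 16 libraries in 8 groups of 2. The Pml table held Pml KO cells and WT cells, both untreated. The arsenite table held WT cells given 200 µM sodium arsenite, an oxidising and protein-damaging stressor, for 2 h, and untreated WT cells. The Trim33 table held cells labelled Trim33 KO and WT, each given for 2 h either 50 ng/ml activin A, a ligand of the TGF-β family, or 10 µM SB431542, an inhibitor of the activin type I receptors. How the KO lines were made, and whether each is 1 clone, the labels do not say. Nor do they say that replicate libraries are separate cultures: the p-values cover the spread between libraries alone, and that spread may be technical. The tables were normalised separately, each had its own control libraries, and differences were taken only within a table. A level is in FPKM in the Pml table and in RPKM in the other tables, both of which scale reads by gene length and library size.

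p53 is held at a low level by Mdm2, a ubiquitin ligase whose own gene p53 activates. When DNA damage or another stress weakens that hold, p53 accumulates mainly as protein and switches on genes that stop the cell cycle, repair damage or start cell death. PML is the scaffold protein of nuclear bodies in which p53 is acetylated and phosphorylated, and arsenite is known to bind PML and to alter those bodies. Mouse ES cells are known for a high level of Trp53 RNA and a short G1 phase. The libraries measure RNA, so the amount and the activity of p53 protein were not measured.

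The targeted genes were examined first. Pml RNA was at 32.0 and 33.5 FPKM in the 2 Pml KO libraries, against 49.8 and 45.1 FPKM in the WT libraries (-0.52 ± 0.06 in log2, SE; adjusted p 4.89e-04). Pml RNA was therefore lower in KO cells but still present, and whether the reads lie outside a deleted part was not tested. Trim33 was at 2.53 and 2.79 RPKM in the Trim33 KO libraries with activin A, against 20.1 and 23.5 RPKM in WT with activin A. With SB431542 the levels went against the labels, at 18.3 and 24.6 RPKM in the libraries labelled KO and 2.94 and 2.44 RPKM in those labelled WT. The SB431542 groups are therefore called by their labels throughout. The Y-linked gene Eif2s3y was at 1.10 and 0.75 FPKM in Pml KO libraries, against 16.2 and 20.6 FPKM in WT libraries, so the KO and WT cells of that table also differed in a Y-linked gene. In the Trim33 table Eif2s3y averaged 0.0325 RPKM in Trim33 KO and 39.7 RPKM in WT with activin A, and 39.3 RPKM in labelled KO and 0.104 RPKM in labelled WT with SB431542, so it too went against the SB431542 labels. All 7 ES cell markers examined, among them Pou5f1, Sox2 and Nanog, were at 1 or above in all 16 libraries, although 6 of them fell after arsenite. Depth could be recovered for the arsenite libraries, at 46700000 to 48500000 reads, and for the Trim33 libraries, at 31200000 to 39500000 reads, and is unknown for the Pml libraries.

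The promoters are shown because the members that rose and those that did not can be set side by side in them. RefSeq promoter windows (GRCm38.p6, 250 bases before to 50 after the gene start) were found for 8 of the 10 genes, with 12 windows in all. They were searched on both strands for the p53 half-site, a palindrome of 10 bases, and for 2 half-sites 0 to 13 bases apart with at most 1 mismatch in each. An exact half-site lay in 8.36% of all 32851 such windows and a pair in 2.71%. Matches, in capitals, were in these windows:
Cdkn1a: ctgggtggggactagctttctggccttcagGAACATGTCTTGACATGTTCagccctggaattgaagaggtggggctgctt
Ccng1: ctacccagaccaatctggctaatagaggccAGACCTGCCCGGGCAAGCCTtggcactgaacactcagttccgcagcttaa
Mdm2: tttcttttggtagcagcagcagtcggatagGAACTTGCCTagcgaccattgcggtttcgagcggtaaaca
Trp53: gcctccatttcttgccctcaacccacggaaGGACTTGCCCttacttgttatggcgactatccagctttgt
Sesn1: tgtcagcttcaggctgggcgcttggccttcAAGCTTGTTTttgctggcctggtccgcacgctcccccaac
Bax: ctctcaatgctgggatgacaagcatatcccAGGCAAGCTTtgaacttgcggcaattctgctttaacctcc
The Cdkn1a stretch is chr17:29090898-29090977 on the plus strand, with the pair starting at offset -51 from the gene start and 1 mismatch. The same window held a second pair at offset -73 with 0 mismatches, overlapping that one. The first half-site of that second pair, also exact, lies in the printed stretch but is left in lower case. The Ccng1 stretch is chr11:40755432-40755511 on the minus strand, with a pair at offset -195 and 1 mismatch. The other 4 windows each held a single exact half-site: Mdm2 in chr10:117710905-117710974 on the minus strand, Trp53 in chr11:69580254-69580323 on the plus strand, Sesn1 in chr10:41887236-41887305 on the plus strand and Bax in chr7:45467060-45467129 on the minus strand. Cdkn1a and Sesn1 each had another window without a match, chr17:29093519-29093818 and chr10:41810324-41810623. The Sesn1 half-site lay in the window at a start farther inside the gene. No match was found in the windows of Plk2 and Bbc3, which says only that these letters are not there, and Perp and Trp53inp1 are named only. Half-sites were thus found both in genes that rose in the comparisons that follow (Cdkn1a, Ccng1, Mdm2) and in genes that did not (Trp53, Sesn1, Bax).

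In Pml KO cells, 7 of the 10 genes rose, 1 fell and 2 did not pass the test, which was limma on log2(value + 1) with an adjusted p under 0.05. The genes that rose were Perp, Plk2, Cdkn1a, Ccng1, Trp53inp1, Mdm2 and Bbc3, and the one that fell was Trp53 itself. Among all 11648 genes tested in those libraries, 35.5% passed, 16.6% higher and 18.9% lower in KO cells. The median log2 fold change was 0.83 over the 10 genes and -0.02 over all genes. After arsenite, the same 7 genes rose, Trp53 and Bax fell, and Sesn1 did not pass. Among the 12136 genes tested there, 67.7% passed, 40.7% higher and 27% lower. The higher share of those calls was 60.1%, and 48.7% when libraries were scaled by trimmed means; the counts of members were the same. The median log2 fold change was 0.71 over the 10 genes against 0.08 over all genes. The rise of 7 members in both comparisons stands beside 9.87% of the 11162 genes tested in both tables that were higher in both. No member passed in opposite directions.

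**Figure D1:**
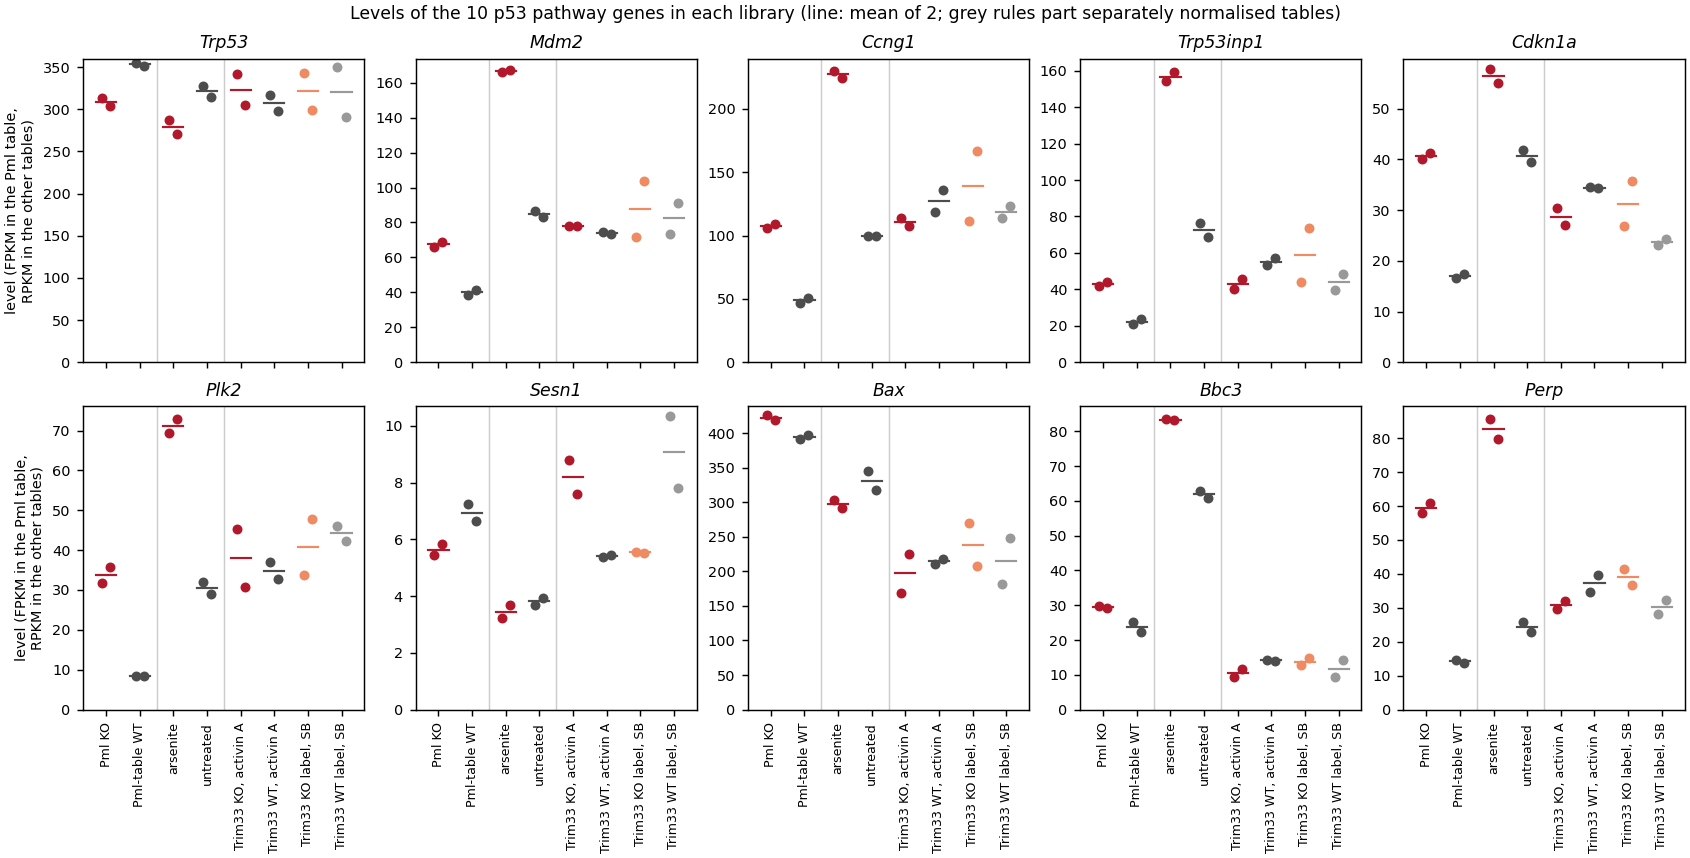
Level of each of the 10 genes in each library (points; FPKM in the Pml table, RPKM in the others) with the mean of the 2 libraries of each group (line); grey rules separate tables that were normalised separately. Perp stood at 58.0 and 61.0 FPKM in Pml KO cells, against 14.6 and 13.7 FPKM in WT cells, while Trp53 stayed between 270.3 and 355 in all 16 libraries.

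Trp53 (chromosome 11, 69580359 to 69591873, plus strand, GRCm38) was among the most abundant of the 10 RNAs per length. It was at 314 and 304 FPKM in Pml KO cells, against 355 and 352 FPKM in WT cells. After arsenite it was at 287 and 270.3 RPKM, against 328 and 315 RPKM in untreated cells. In both tables the groups did not overlap and the fall was small, -0.20 ± 0.04 in log2 for the KO (SE; adjusted p 0.010) and -0.21 ± 0.04 for arsenite (adjusted p 0.00420). The arsenite fall was -0.04 (adjusted p 0.286) when the libraries were quantile normalised, and the KO fall lost its call without Pml KO replicate 2 (adjusted p 0.0962). Reads could be split with the pseudogene Trp53-ps, which shares 3.64% of the 50-base words of the Trp53 transcripts.

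Among the feedback genes, Mdm2 (chromosome 10, 117688875 to 117710758, minus strand), whose protein marks p53 for degradation, was at 65.9 and 68.9 FPKM in Pml KO cells, against 38.8 and 41.2 FPKM in WT cells. After arsenite it was at 166 and 167 RPKM, against 86.7 and 83 RPKM in untreated cells. Its log2 rise was 0.74 ± 0.06 in the KO (SE; adjusted p 3.04e-05) and 0.97 ± 0.04 after arsenite (adjusted p 1.13e-06). Both KO libraries stood above both WT libraries, by 1.67-fold on the log2(value + 1) scale, and both arsenite libraries above both untreated ones, by 1.95-fold.

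Ccng1 (chromosome 11, 40748552 to 40755311, minus strand) encodes cyclin G1, which directs the phosphatase PP2A to Mdm2. It was at 106 and 109 FPKM in Pml KO cells, against 47.0 and 50.5 FPKM in WT cells, and at 230.1 and 224 RPKM after arsenite, against 99.97 and 99.8 RPKM in untreated cells. The log2 rises were close, 1.12 ± 0.05 (SE; adjusted p 2.18e-06) in the KO and 1.18 ± 0.04 (adjusted p 4.33e-07) after arsenite, and the libraries of each pair lay close together.

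Trp53inp1 (chromosome 4, 11156431 to 11174379, plus strand) encodes a stress-induced protein that works with p53-modifying kinases. Its level was 41.6 and 44.2 FPKM in Pml KO cells, against 21.1 and 23.5 FPKM in WT cells. After arsenite it was 154 and 159 RPKM, against 76.5 and 68.7 RPKM in untreated cells. The log2 rise was 0.92 ± 0.07 in the KO (SE; adjusted p 3.04e-05) and 1.10 ± 0.05 after arsenite (adjusted p 2.93e-06), so that all 3 feedback genes rose in both tables.

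Of the genes of growth arrest, Cdkn1a (chromosome 17, 29090976 to 29100727, plus strand) encodes p21, the inhibitor of cyclin-dependent kinases through which p53 halts the cell cycle. It was at 40.1 and 41.3 FPKM in Pml KO cells, against 16.7 and 17.4 FPKM in WT cells, and at 57.7 and 55.1 RPKM after arsenite, against 41.8 and 39.4 RPKM in untreated cells. Its log2 rise of 1.21 ± 0.06 in the KO (SE; adjusted p 2.36e-06) put it at percentile 98 of all fold changes in that table, and its rise of 0.46 ± 0.05 after arsenite (adjusted p 9.47e-05) at percentile 79.5. An annotated transcript on the opposite strand, AC167363.2, overlaps 7.68% of its exon bases, and the sources used here do not say whether strand was counted.

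Plk2 (chromosome 13, 110395046 to 110400844, plus strand), a polo-like kinase induced by serum and by p53, was at 31.9 and 35.7 FPKM in Pml KO cells, against 8.39 and 8.44 FPKM in WT cells. After arsenite it was at 69.4 and 72.8 RPKM, against 31.9 and 28.9 RPKM in untreated cells. The KO level was 3.69-fold above WT and the arsenite level 2.3-fold above untreated on the log2(value + 1) scale, with log2 rises of 1.88 ± 0.07 (SE; adjusted p 6.06e-07) and 1.2 ± 0.06 (adjusted p 2.15e-06).

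Sesn1 (chromosome 10, 41809935 to 41908424, plus strand), a sestrin that restrains mTORC1 signalling, was the least abundant member in these tables, and neither difference passed. It was at 5.45 and 5.83 FPKM in Pml KO cells, against 7.23 and 6.65 FPKM in WT cells, and at 3.23 and 3.67 RPKM after arsenite, against 3.70 and 3.93 RPKM in untreated cells. The libraries did not overlap in either table, yet the log2 differences of -0.26 ± 0.09 in the KO (SE; adjusted p 0.0505) and -0.11 ± 0.09 after arsenite (adjusted p 0.290) did not pass. After quantile normalisation both passed, at -0.29 (adjusted p 0.0293) and -0.30 (adjusted p 0.0175).

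Of the cell death genes, Perp (chromosome 10, 18845020 to 18857073, plus strand) encodes a membrane protein that acts in p53-dependent apoptosis and is also a component of desmosomes in stratified epithelia. It was at 58.0 and 61.0 FPKM in Pml KO cells, against 14.6 and 13.7 FPKM in WT cells, and at 85.8 and 79.8 RPKM after arsenite, against 25.8 and 23.0 RPKM in untreated cells. No member had a higher fold change in either table: 1.99 ± 0.06 in log2 in the KO (SE; adjusted p 1.83e-07) and 1.72 ± 0.06 after arsenite (adjusted p 8.46e-07), at percentiles 99.4 and 99.3 of all genes. Because Perp is expressed in epithelia, their markers were followed as well. The summed level of 6 stratified epithelium markers was 58.0 to 58.6 FPKM in Pml KO and 43.7 to 48.4 FPKM in WT libraries, and 64.2 to 64.5 RPKM after arsenite and 45.3 to 48.7 RPKM untreated. Of these, only Dsp and Jup were tested. In the KO Dsp rose, from a mean of 2.32 FPKM in WT to 15.8 FPKM. Jup did not pass there, at means of 42.0 FPKM in KO and 43.4 FPKM in WT cells. Both rose after arsenite. Krt5 was at 0 in WT and at a mean of 0.04 FPKM in KO cells, and Trp63 was at 0 in untreated cells. Their part in the rise of Perp was not tested.

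Bbc3 (chromosome 7, 16308393 to 16318205, plus strand) encodes PUMA, a BH3-only protein that triggers apoptosis. It was at 29.8 and 29.3 FPKM in Pml KO cells, against 25.2 and 22.3 FPKM in WT cells, and at 83.5 and 83.3 RPKM after arsenite, against 62.8 and 61.0 RPKM in untreated cells. These were the smallest rises among the 7 genes, 0.31 ± 0.07 in log2 in the KO (SE; adjusted p 0.0105) and 0.43 ± 0.04 after arsenite (adjusted p 4.78e-05). Without the filter on low values the KO rise did not pass (adjusted p 0.0603).

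Bax (chromosome 7, 45461697 to 45466898, minus strand) encodes the protein that opens the outer mitochondrial membrane in apoptosis. It was at 426 and 419 FPKM in Pml KO cells, against 391 and 398 FPKM in WT cells, and at 303 and 292 RPKM after arsenite, against 345 and 318 RPKM in untreated cells. The KO difference of 0.10 ± 0.04 in log2 (SE; adjusted p 0.114) did not pass, although it did after quantile normalisation (adjusted p 0.0344). The arsenite fall of -0.16 ± 0.05 (adjusted p 0.0222) rested on single libraries and on the scaling: it did not pass without untreated replicate C-1 (adjusted p 0.156) or arsenite replicate 2 (adjusted p 0.0837), nor without the filter (adjusted p 0.0735), and was 0.03 after quantile normalisation (adjusted p 0.498). Bax shares 12.18% of its exon bases with Gm45808 on the same strand, so its reads may be split. Of these BCL2 family genes, Bbc3 thus rose in both tables and Bax in neither.

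The knockout and arsenite changes were then compared gene by gene as the KO log2 fold change minus the arsenite log2 fold change, in 1 fit of the 8 libraries. Among the 11162 genes tested 52.7% differed (40.9% of them upward, and 56.9% with scaling by trimmed means), and 5 of the 10 members did, a share near that background. The KO change was the higher one for Cdkn1a, Plk2, Perp and Bax, and the arsenite change for Mdm2. Cdkn1a and Plk2 had the clearest differences, both higher in the KO. The difference was 0.74 ± 0.07 for Cdkn1a (SE; 95% interval 0.58 to 0.90; adjusted p 1.40e-05) and 0.68 ± 0.09 for Plk2 (0.48 to 0.89; adjusted p 1.43e-04), and both kept their call under every alternative tried. Perp differed by 0.27 ± 0.09 (adjusted p 0.0264) and Bax, which rose in neither table, by 0.25 ± 0.06 (adjusted p 0.00719). The difference of Perp did not pass without any one of Pml WT replicate 2, Pml KO replicate 2, untreated replicate C-1 or arsenite replicate 2 (adjusted p 0.0703, 0.0906, 0.11 and 0.11). That of Bax was 0.10 (adjusted p 0.142) after quantile normalisation. Mdm2 was the only member whose difference passed in the arsenite direction, at -0.22 ± 0.07 (adjusted p 0.0146). That call was lost when the tables were scaled by trimmed means (-0.10, adjusted p 0.243) and without Pml KO replicate 1 or untreated replicate C-2. Trp53inp1, Ccng1 and Bbc3 also had larger rises after arsenite, with differences that did not pass.

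For the other 5 members the difference did not pass, which does not show that the changes were equal. The 95% interval was -0.19 to 0.09 for Ccng1, -0.12 to 0.15 for Trp53, -0.39 to 0.02 for Trp53inp1, -0.41 to 0.12 for Sesn1 and -0.29 to 0.06 for Bbc3. Trp53inp1 passed in the arsenite direction without Pml WT replicate 1 or untreated replicate C-1 (adjusted p 0.0326 and 0.0428), and Bbc3 without Pml WT replicate 2 (adjusted p 0.0217). The 2 comparisons also differ in kind, a lasting loss of a gene against a stress of 2 h, and in their table, FPKM against RPKM.

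**Figure D2:**
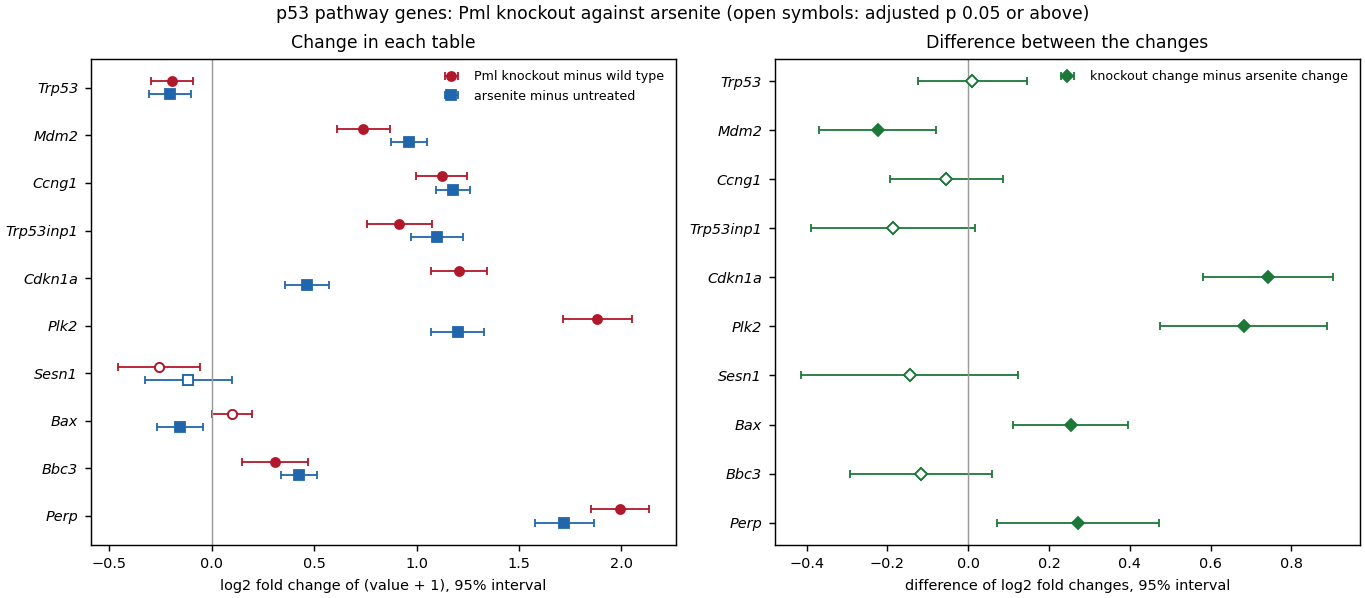
Left, log2 fold change of each gene in Pml KO minus WT cells (red circles) and in arsenite minus untreated cells (blue squares); right, the KO change minus the arsenite change (green diamonds). Bars are 95% intervals from limma, and open symbols mark an adjusted p of 0.05 or above. Cdkn1a and Plk2 lie farthest to the right in the right panel, at 0.74 and 0.68, and Mdm2 farthest to the left, at -0.22.

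The order of the levels differed little between the control cells of the tables. Per length, WT cells of the Pml table averaged 395 FPKM of Bax, 354 of Trp53, 48.8 of Ccng1, 39.95 of Mdm2, 23.8 of Bbc3, 22.3 of Trp53inp1, 17.1 of Cdkn1a, 14.2 of Perp, 8.42 of Plk2 and 6.94 of Sesn1 (n = 2). Bbc3 and Trp53inp1 overlapped between libraries, and the other neighbours in that order did not. Untreated cells of the arsenite table averaged 331 RPKM of Bax, 321 of Trp53, 99.9 of Ccng1, 84.8 of Mdm2, 72.6 of Trp53inp1, 61.9 of Bbc3, 40.6 of Cdkn1a, 30.4 of Plk2, 24.4 of Perp and 3.81 of Sesn1 (n = 2). There Bax and Trp53 overlapped, and no other neighbours did. These levels come from separately normalised tables and are not compared with a test.

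**Figure D3:**
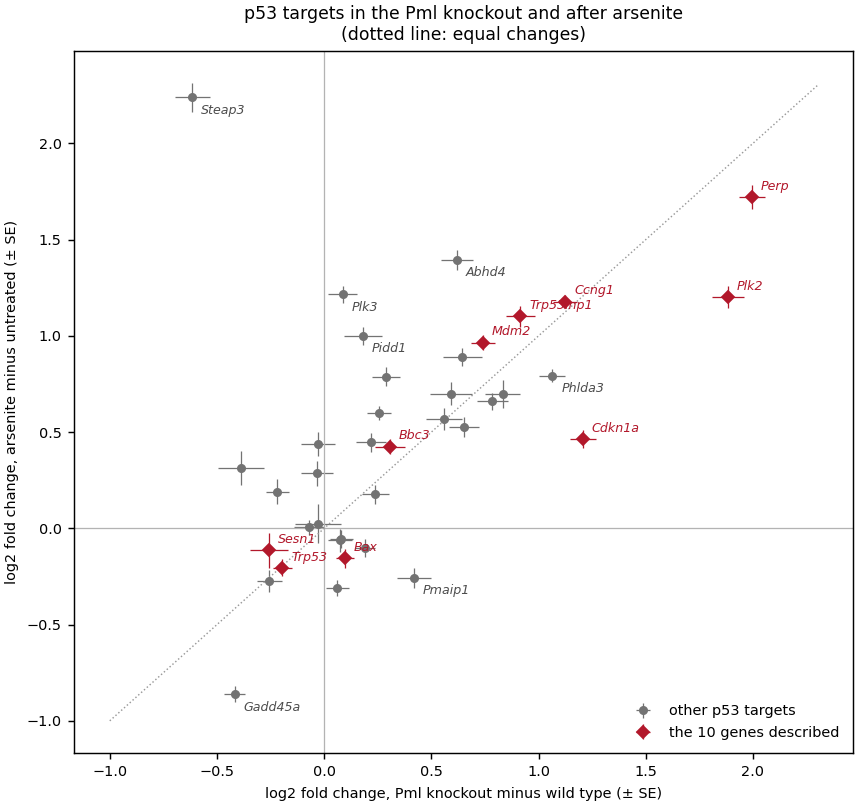
Log2 fold change in Pml KO minus WT cells (horizontal axis) against that in arsenite minus untreated cells (vertical axis), with standard errors, for the 10 genes described (red diamonds) and 28 other p53 targets (grey circles); the dotted line marks equal changes. Perp, Plk2 and Ccng1 lie at the upper right, Gadd45a fell in both, and Steap3 stands apart at -0.61 in the KO and 2.24 after arsenite.

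A list of 30 other p53 target genes was followed beside the members, of which 28 were tested (all but Dram1 and Fas). In Pml KO cells 14 rose, 5 fell and 9 did not pass (67.9% called, against 35.5% of all genes), with a median log2 fold change of 0.19 against -0.02 over all genes. Among those that rose were Phlda3, a repressor of the kinase Akt (1.06 ± 0.06 SE, adjusted p 5.75e-06), Rap2b, a small GTPase (0.83 ± 0.08), and Eda2r, a receptor of the TNF receptor family (0.78 ± 0.07). Among those that fell were Steap3, a ferrireductase (-0.61 ± 0.08), Gadd45a, a growth arrest and DNA damage gene (-0.42 ± 0.05), and Tigar, a regulator of glycolysis (-0.26 ± 0.06). After arsenite 19 rose, 4 fell and 5 did not pass (82.1% called, against 67.7% of all genes), with a median of 0.44 against 0.08 over all genes. Steap3 (2.24 ± 0.08), Abhd4 (1.39 ± 0.05), a lipid hydrolase, and the kinase Plk3 (1.22 ± 0.05) were among those that rose, and Gadd45a (-0.86 ± 0.04), Ei24 (-0.31 ± 0.04) and Pmaip1, which encodes the BH3-only protein NOXA (-0.26 ± 0.05), among those that fell.

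Of the 28 other targets 12 rose in both comparisons, as did 9.87% of all genes, 2 fell in both and 4 passed in opposite directions. The 4, named because the count is small, were Steap3, Pmaip1, the DNA repair gene Ddb2 (-0.39 ± 0.11 in the KO and 0.31 ± 0.09 after arsenite) and Triap1 (-0.22 ± 0.05 and 0.19 ± 0.07). Tested directly, the KO change was lower than the arsenite change for 11 of the 28 and higher for 5, together 57.1%, near the 52.7% of all genes. It was -2.85 ± 0.11 for Steap3 (adjusted p 1.60e-08), -1.13 ± 0.08 for Plk3 (adjusted p 8.45e-07) and -0.77 ± 0.09 for Abhd4 (adjusted p 4.36e-05). It was higher by 0.68 ± 0.09 for Pmaip1 (adjusted p 9.96e-05), 0.44 ± 0.06 for Gadd45a (adjusted p 1.38e-04) and 0.37 ± 0.07 for Ei24 (adjusted p 8.54e-04).

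Of 16 tested upstream regulators and relatives of p53, 2 rose and 3 fell in Pml KO cells (31.2%, against 35.5% of all genes), and 6 rose and 5 fell after arsenite (68.8%, against 67.7%), both shares near the background. Cdkn2a, whose locus encodes the Mdm2 inhibitor ARF as well as p16, rose in both: its mean level was 24.8 FPKM in Pml KO against 11.4 FPKM in WT cells, and 25.03 RPKM after arsenite against 9.37 RPKM in untreated cells. Its log2 fold changes were 1.05 ± 0.08 (SE; adjusted p 2.24e-05) and 1.33 ± 0.07 (adjusted p 3.42e-06), and a value of the gene does not tell ARF from p16. Hipk2, a kinase of p53, fell in the KO (-0.78 ± 0.09), and so did Daxx, a partner of PML (-0.18 ± 0.05), which rose after arsenite (0.59 ± 0.04). The damage kinase Chek1 (-0.98 ± 0.06), the deacetylase Sirt1 (-0.80 ± 0.05) and the deubiquitinase Usp7 (-0.47 ± 0.04) fell after arsenite.

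Genes of G2 and mitosis, which are known to fall when p53 acts through p21, were followed because Cdkn1a rose. In Pml KO cells 3 of the 18 fell, none rose and 15 did not pass (16.7% called, against 35.5% of all genes), with a median of -0.07 against -0.02 over all genes. The 3 were Kif23 (-0.26 ± 0.06 SE), Bub1b (-0.21 ± 0.05) and Bub1 (-0.19 ± 0.06). After arsenite 10 rose and 3 fell (72.2% called, near the 67.7% of all genes), with a median of 0.14 against 0.08, among them Ccnb2 (0.43 ± 0.04) and Cdc20 (0.37 ± 0.04) upward and Cdk1 (-0.16 ± 0.04) downward. Of 11 tested members of the BCL2 family other than Bax and Bbc3, 3 rose and 3 fell in the KO (54.5%, against 35.5% of all genes), and 3 rose and 4 fell after arsenite (63.6%, against 67.7%, near the background). The antiapoptotic gene Bcl2l1 rose in both, by 0.47 ± 0.06 and 1.44 ± 0.05, and Hrk, a BH3-only gene, fell in both, by 0.93 ± 0.12 and 0.89 ± 0.07 on the log2 scale. In the Pml table Hrk was near the floor, at means of 0.35 FPKM in KO and 1.57 FPKM in WT cells. There it passed the filter only through the WT libraries, so that fall adds no separate support.

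Markers of other cell types were followed in the same comparisons. The summed level of 7 trophectoderm markers was 660 to 680 FPKM in Pml KO libraries and 60.1 to 64.7 FPKM in WT libraries. Most of the KO sum came from Krt8 and Krt18, at means of 323 and 280 FPKM. All 6 tested markers rose, against 16.6% of all genes. Cdx2, Krt7 and Gata3 averaged 0.71, 0.43 and 0.06 FPKM in WT cells. They thus passed the filter on low values only through the KO libraries, and their rise adds no separate support. After arsenite the summed level was 136 to 137 RPKM, against 88.9 to 90.1 RPKM in untreated cells. There 4 of 5 tested markers were higher and 1 lower, while 67.7% of all genes passed. Gata3, at a mean of 0.38 RPKM in untreated cells, passed the filter only through the arsenite libraries. The ES cell markers summed to 7397 to 7632 FPKM in Pml KO and 7684 to 7698 FPKM in WT libraries. In the KO 2 of the 7 fell and 5 did not pass, while 35.5% of all genes passed. After arsenite the markers summed to 2640 to 2744 RPKM, against 4681 to 4762 RPKM in untreated cells. There 6 of the 7 fell and 1, Utf1, rose, while 27% of all genes were lower. Nanog averaged 48.3 RPKM after arsenite against 271 RPKM in untreated cells, Zfp42 141 against 619 RPKM and Sox2 299 against 558 RPKM. The 7 fibroblast markers summed to 20.8 to 22.3 FPKM in Pml KO and 8.02 to 8.17 FPKM in WT libraries, with Postn at 0 in WT. Of 5 tested there, 4 rose, each at a mean under 1 FPKM in WT. These 4 thus passed the filter only through the KO libraries, and their rise adds no separate support. Thy1, the most abundant in WT, fell from a mean of 7.27 to 4.27 FPKM. After arsenite the sums overlapped, at 4.98 to 6.35 RPKM against 6.30 to 6.44 RPKM in untreated cells. Primitive endoderm markers, 6 in all, summed to 3.13 to 3.23 FPKM in Pml KO and 7.21 to 7.68 FPKM in WT libraries, and to 14.3 to 15.5 RPKM after arsenite and 7.86 to 8.11 RPKM in untreated cells. The part of these marker changes in the rise of the p53 targets was not tested, and in bulk libraries fewer cells of a type and less RNA per cell cannot be told apart.

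In the Trim33 table none of the 10 genes passed in any simple comparison. With activin A, Trim33 KO minus WT called 0 of 10 members against 9.43% of 11914 genes, and 1 member had an unadjusted p under 0.05. In the libraries labelled KO minus those labelled WT with SB431542 it called 0 of 10 against 9.56% of genes, and 3 members had an unadjusted p under 0.05. Activin A minus SB431542, averaged over both genotype labels, called 0 of 10 against 0.109% of genes, with none at an unadjusted p under 0.05. In that comparison Plk2 had the lowest log2 difference, -0.22 ± 0.15, and Cdkn1a the highest, 0.21 ± 0.11 (adjusted p 0.9996 for each). Limma was the only test run here.

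The spread within the Trim33 table was wide. With activin A the KO and WT libraries overlapped for Trp53, Plk2 and Bax, and did not overlap for the other 7 members, although none of them passed. With SB431542 the labelled groups did not overlap for Sesn1, Cdkn1a and Perp. With 2 libraries per group, such separation is frequent even without a difference. Its share over all genes is not given here, so no difference is read from it. Mdm2 ranged over its 8 libraries between 71.4 and 104 RPKM, Ccng1 between 107 and 167 RPKM, Trp53inp1 between 39.6 and 73.6 RPKM, Plk2 between 30.8 and 47.8 RPKM, and Cdkn1a between 23.0 and 35.7 RPKM. Bbc3 ranged between 9.22 and 14.7 RPKM, Bax between 169 and 270.3 RPKM, and Trp53 between 290.4 and 350.2 RPKM. The library labelled KO with SB431542 replicate 2 was the highest of the 8 for Mdm2, Ccng1, Trp53inp1, Plk2, Cdkn1a and Bbc3. Its partner, replicate 1, was at 71.4 RPKM of Mdm2, 112 RPKM of Ccng1 and 44.1 RPKM of Trp53inp1, so this group had a wide spread. Without that replicate 1, Trp53inp1 (0.74, adjusted p 0.0368) and Cdkn1a (0.57, adjusted p 0.0438) passed in the SB431542 comparison.

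Sesn1 and Perp were the 2 of 10 members whose genotype-label difference passed the test of a difference between the treatments, a share below the 26.3% of all genes. Sesn1 was at 8.79 and 7.60 RPKM in Trim33 KO with activin A, against 5.38 and 5.45 RPKM in WT with activin A. It was at 5.56 and 5.52 RPKM in the libraries labelled KO with SB431542, against 10.3 and 7.80 RPKM in those labelled WT. Its differences were 0.52 ± 0.17 in log2 with activin A (SE; adjusted p 0.0855) and -0.61 ± 0.17 with SB431542 (adjusted p 0.0538). The difference between them was 1.13 ± 0.24 (adjusted p 0.00923), and the libraries with low Trim33 RNA, KO with activin A and labelled WT with SB431542, were the high ones for Sesn1.

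Perp went the other way. It was at 29.5 and 31.9 RPKM in Trim33 KO with activin A, against 34.7 and 39.7 RPKM in WT with activin A, and at 41.5 and 36.6 RPKM in the libraries labelled KO with SB431542, against 28.3 and 32.4 RPKM in those labelled WT. The difference between the label effects was -0.62 ± 0.19 (SE; adjusted p 0.0396). It did not pass without the filter on low values (adjusted p 0.0512) or without any one of 6 of the 8 libraries, all but the replicate 2 libraries labelled KO and WT with SB431542 (adjusted p 0.062 to 0.15). Cdkn1a, at -0.63 ± 0.21, did not pass in that test (adjusted p 0.0577), though it did after scaling by trimmed means (adjusted p 0.0364).

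**Figure D4:**
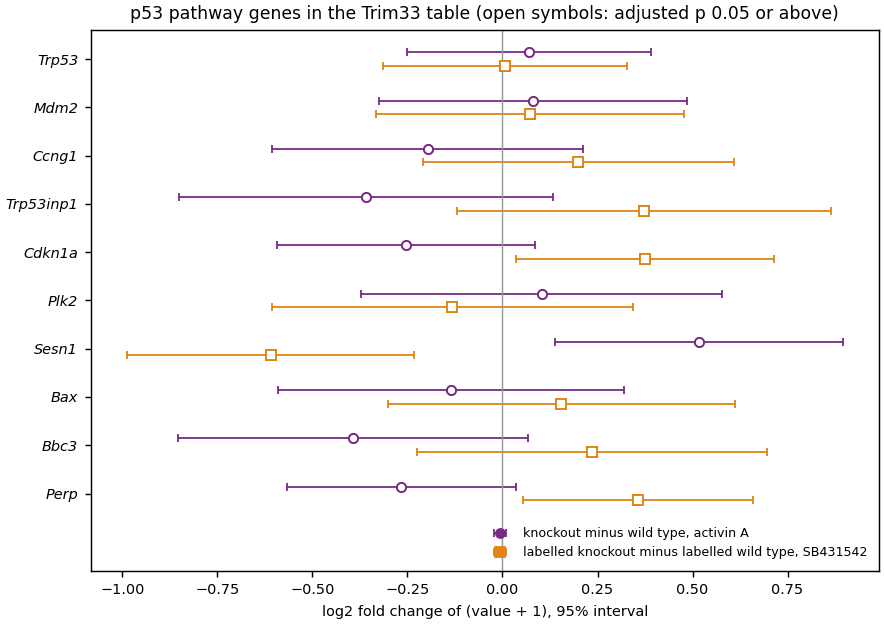
Log2 fold change of each gene in Trim33 KO minus WT with activin A (purple circles) and in libraries labelled KO minus those labelled WT with SB431542 (orange squares), with 95% intervals; open symbols mark an adjusted p of 0.05 or above, here all of them. The signs of Sesn1 are opposite, 0.52 with activin A and -0.61 with SB431542, as are those of Perp, -0.27 and 0.36.

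Of the 28 other p53 targets tested in the Trim33 table, 2 rose and 1 fell with activin A, and 2 were higher and 2 lower in the libraries labelled KO with SB431542. These are 10.7% and 14.3% of the list, against 9.43% and 9.56% of all genes. Gadd45a averaged 25.4 RPKM in Trim33 KO against 59.3 RPKM in WT with activin A (-1.17 ± 0.23 in log2, SE; adjusted p 0.0172). Steap3 rose by 1.25 ± 0.29 (adjusted p 0.0319) and Tigar by 0.54 ± 0.13 (adjusted p 0.0346). With SB431542 the labelled groups differed the other way, by 1.28 ± 0.23 for Gadd45a (adjusted p 0.0125) and -1.28 ± 0.29 for Steap3 (adjusted p 0.0288). Trim33 RNA went against those labels, so this does not show a reversal by the treatment. Under both treatments Gadd45a was lower and Steap3 higher in the libraries with low Trim33 RNA. With SB431542 Gadd45a averaged 27.0 RPKM in labelled WT against 68.2 RPKM in labelled KO, and Steap3 8.84 against 3.07 RPKM. The fibroblast markers summed to 14.5 to 42.7 RPKM in Trim33 KO and 6.93 to 7.67 RPKM in WT with activin A, and to 7.09 to 7.47 RPKM in labelled KO and 11.1 to 36.5 RPKM in labelled WT with SB431542. Their part in these differences was not tested.

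The members also differed in how closely they moved together over the 16 libraries, after log2(value + 1) was centred within each table. Pearson's r with the mean of the other 9 members was 0.98 for Ccng1, 0.96 for Perp, 0.93 for Mdm2, 0.92 for Trp53inp1 and Plk2, 0.85 for Cdkn1a and 0.66 for Bbc3. It was -0.05 for Bax, -0.48 for Sesn1 and -0.78 for Trp53. These values describe libraries that share tables, groups and depth, and carry no p. Among 10868 genes kept in all 3 tables, those most like the mean of the 10 members by the same measure were Tubb6 (r = 0.976), Fam107b (0.975), Serpine2 (0.975), Arhgef5 (0.969) and Cdk14 (0.966).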

How the data were processed

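Total RNA libraries of mouse ES cells were made with an Illumina TruSeq kit, per the labels' protocols. The submitters' processing notes list the build mm10, featureCounts 2.0.1, SAMtools 1.9, Bowtie2 2.3.3, DESeq2 and FastQC 0.11.5, with no order or role. The authors deposited FPKM values in the Pml table and RPKM values in the arsenite table. The deposited Trim33 table names no unit and behaves as RPKM: 90.9% to 94.5% of its low values in single-exon genes, up to 20 reads, were whole reads within a tolerance of 0.05 reads. Only 19.4% to 25.7% were whole in the Pml table. A value of 1 RPKM was 31.2 to 48.5 reads per kilobase. Replicates held no identical values. Columns were matched to titles by name, the 2 untreated columns as a group.

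Date-like names, 27 per table, were left out, and genes at 1 or above in at least 2 libraries were kept. Values were tested as log2(value + 1), which understates the change of low genes, with limma 3.58.1 (R 4.3.3; lmFit, eBayes with trend, two-sided, Benjamini-Hochberg over all genes tested). Each of the Pml and arsenite tables had a fit of its own (2 residual degrees of freedom), their difference 1 fit of 8 libraries, and the Trim33 table as 4 group means. The fits were tested on simulated data. No count test was run, because the values are not counts. Alternatives were a pseudocount of 0.1, no filter, scaling by trimmed means, quantile normalisation, leaving out each library and a replicate block. Coordinates are from GENCODE on GRCm38, promoters from RefSeq. Depth, promoters and figures used matplotlib 3.10.9, scipy 1.17.1, pandas 2.3.3 and numpy 2.4.6 under Python 3.11.15.

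The members and lists were chosen with earlier results of these data known. The text names all 10 members, Pml and Trim33, up to 3 genes per list, comparison and direction with the smallest adjusted p, and the 5 genes most like the members. Eif2s3y, Ddb2, Triap1, Dsp and Jup were named after their values were seen.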

Additional observations from a re-analysis of the deposited data

Results flagged for a closer look

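The genotype-label difference of Sesn1 in the Trim33 table was 1.13 higher in log2 with activin A than with SB431542 (1.127, limma, adjusted p 0.00923). It was tested as an interaction of genotype label and treatment. Because Trim33 RNA went against the SB431542 labels, it does not show a dependence on treatment. Sesn1 was higher in the libraries with low Trim33 RNA under both treatments. In both libraries of each pair the labelled difference had the same direction, higher in KO with activin A and lower in labelled KO with SB431542.

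The same test for Perp gave -0.62 (-0.6226, adjusted p 0.0396), in the opposite direction. Trim33 averaged 2.66 RPKM in KO and 21.8 RPKM in WT with activin A, and 21.5 RPKM in labelled KO and 2.69 RPKM in labelled WT with SB431542. Each treatment thus held libraries of low and of high Trim33, and the tested contrast adds the low minus high Trim33 differences of both treatments.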

How the results depend on the processing

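Of 740 values recomputed for the members, 46 changed sign, and 45 of those passed the test in neither setting. The exception was Bax after arsenite, 0.0286 in log2 under quantile normalisation (adjusted p 0.498); the cause was not tested. The number of members called stayed within 1.5 times of 8 in the Pml KO and of 9 after arsenite under all alternatives run for them. With SB431542 labels it was 0, and 1 with a replicate block (Sesn1, adjusted p 0.0371); leaving out a library gave 0 to 2. In the interaction it was 2, and 1 without the filter; leaving out a library gave 1 to 4. With activin A it was 0, and 1 (Sesn1, adjusted p 0.0486) when those libraries were fitted alone, an alternative chosen after seeing the data. Trp53inp1 passed in the interaction with the replicate block (adjusted p 0.0464); the block changed no other member's call.

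Deviations of same-numbered libraries from their group means correlated at 0.0234 in the Pml table and -0.14 to 0.602 in the Trim33 table. The highest values there joined groups alike in Trim33 RNA. They were 0.602 for KO with activin A and labelled WT with SB431542, and 0.368 for WT with activin A and labelled KO with SB431542. Whether the numbers mark pairs or a shared batch was not tested. No paired analysis was possible for arsenite and the difference from the KO because the untreated columns carry no title number. Scaling shifted all genes after arsenite: 60.1% of calls were higher as deposited, 48.7% with trimmed means and 49% with quantiles, and the median of all genes was 0.08 and -0.01 with each of these. Of calls in the difference 40.9%, 56.9% and 50% were higher. Under quantile normalisation the share was 49.5% against 61.5% in the interaction, 57.9% against 70.1% with activin A and 41.7% against 31.5% with SB431542 labels. Genes called in the Trim33 table were 1123 with activin A and 184 to 360 without one library, or 1786 fitted alone, 1139 and as few as 296 with SB431542 labels, 3129 and as few as 1846 in the interaction, and 13 against 8 without the filter, 23 with the block and as few as 7 without one library for activin A against SB431542. With 2 libraries per group, and no known depth for the Pml table, differences of low genes such as Sesn1 are the least certain.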
